A study of Rattus norvegicus with 24 samples.

Results

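The apical portion of the spiral ganglion was compared between kanamycin-deafened and hearing rats at postnatal day 60 (P60), across all genes that could be named. The comparison takes 6 of the 24 samples of the series, 3 from deaf and 3 from hearing rats, chosen by their labels alone. Deaf rats were Sprague-Dawley rats of both sexes that received kanamycin at 400 mg/kg intraperitoneally once a day between P8 and P16, and hearing rats were littermates without injections. Each biological replicate pooled 4 to 6 ganglia, so a value is not that of 1 animal. The ganglion was dissected away from the organ of Corti, and its RNA was amplified before labelling with Cy3 and hybridization to 1-colour arrays. The series also holds the basal portion at P60 and both portions at P32, 3 samples in each of 8 groups.

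Kanamycin is an aminoglycoside antibiotic that kills the hair cells of the cochlea. The neurons of the spiral ganglion receive the hair cells' transmitter and carry the signal to the brainstem, and they also depend on the hair cells and supporting cells for activity and trophic factors. In rodents deafened in this way the neurons die slowly, over weeks to months, and the apical end codes low frequencies. The ganglion also holds Schwann cells and satellite glia that myelinate the neurons, fibroblasts, vessels and resident macrophages. Injured peripheral neurons and glia are known to switch on transcription factors of the AP-1 and ATF families, and phagocytes clear their debris with the help of complement.

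The arrays gave 1 normalized intensity per transcript, and log2 of it is used throughout. A difference is the mean of 3 deaf samples minus the mean of 3 hearing samples in log2 units, ± SE from limma. All p-values were adjusted together across the 5750 genes (Benjamini-Hochberg), and a gene is called where its adjusted p is under 0.05. The labels call the samples biological replicates of pooled ganglia and do not say which portions came from the same animals. Precision is limited by the small number of arrays. The median intensity of the 6 samples lay between 2112 and 2245 units. Pearson correlations across genes were 0.900 to 0.908 among the deaf samples, 0.914 to 0.953 among the hearing samples and 0.872 to 0.951 between them. Replicate 1 of each group was on an array platform that holds 8 samples and replicates 2 and 3 on one that holds 16. One sample outside the comparison, P32 hearing apex replicate 1, stood apart, toward the deaf samples, for many of the genes called below. For Ucn2 it read 9.81 log2 units, whereas replicates 2 and 3 of its group read 6.22 and 6.25. Across all genes it did not stand apart: its mean correlation with its group was 0.869, against 0.854 and 0.889 for replicates 2 and 3. This sample enters only through the shared estimate of the spread and through the comparison with P32. Without it 117 genes were called in the P60 apex, against 29 with it.

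A total of 29 genes passed the test in the P60 apex, which is 0.504% of the genes tested. Of these, 26 were higher in deaf rats (0.452%) and 3 were lower (0.0522%). In bulk tissue, a change in the number of cells of a type and a change in RNA per cell cannot be told apart. An unadjusted p under 0.05 was found for 542 genes (9.43%), 399 higher (6.94%) and 143 lower (2.49%). Deaf and hearing samples did not overlap for 701 genes (12.2%), 446 with deaf above (7.76%) and 255 with deaf below (4.43%). Differences were above 0 for 3089 of all genes tested (53.7%). The gene lists described below are set beside these shares, and they were chosen with earlier results of these data known. The AP-1 factors Fos and Fosl2 and the related Atf3 were among the genes that rose, so promoters were searched for the AP-1 motif TGANTCA and for the cyclic AMP response element TGACGTCA, on both strands, a search chosen after these values were seen. A RefSeq promoter, 250 bases before to 50 bases after the start on assembly GRCr8, was found for 18 of the 29 genes, 17 of them higher in deaf rats. TGANTCA was present in 6 of these 17 promoters (35.3%), in 5.58% of the 4711 promoters of tested genes and in 7.33% of all 27457 promoters of that length. In the wider set of genes with an unadjusted p under 0.05 it was present in 28 of 294 promoters of higher genes (9.52%) and in 10 of 115 promoters of lower genes (8.70%). TGACGTCA was found in 1 of the 17, that of Plk2 (5.88%), and in 3.31% of tested and 1.91% of all promoters. The 6 promoters with TGANTCA are printed because they belong to genes that rose in the deaf apex, with the match in capitals and the strand of the gene. They lie at chr8:118515861-118516160, plus strand (Ucn2), chr10:54882392-54882691, minus strand (Cd68), chr4:79340878-79341177, plus strand (Gpnmb), chr3:28611566-28611865, plus strand (Entpd2), chr17:8322900-8323199, plus strand (Cxcl14) and chr6:136997773-136998072, plus strand (Aspg).
Ucn2: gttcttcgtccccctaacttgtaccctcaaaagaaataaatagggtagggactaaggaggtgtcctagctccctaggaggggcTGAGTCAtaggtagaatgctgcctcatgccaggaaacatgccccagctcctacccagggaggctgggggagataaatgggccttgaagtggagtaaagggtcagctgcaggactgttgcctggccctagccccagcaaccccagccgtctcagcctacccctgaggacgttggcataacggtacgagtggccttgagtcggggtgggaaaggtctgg
Cd68: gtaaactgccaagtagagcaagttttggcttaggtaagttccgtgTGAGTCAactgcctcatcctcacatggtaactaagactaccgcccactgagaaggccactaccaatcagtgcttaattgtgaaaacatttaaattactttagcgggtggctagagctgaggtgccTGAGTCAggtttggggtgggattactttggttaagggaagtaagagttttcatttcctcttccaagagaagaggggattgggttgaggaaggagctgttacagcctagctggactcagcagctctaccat
Gpnmb: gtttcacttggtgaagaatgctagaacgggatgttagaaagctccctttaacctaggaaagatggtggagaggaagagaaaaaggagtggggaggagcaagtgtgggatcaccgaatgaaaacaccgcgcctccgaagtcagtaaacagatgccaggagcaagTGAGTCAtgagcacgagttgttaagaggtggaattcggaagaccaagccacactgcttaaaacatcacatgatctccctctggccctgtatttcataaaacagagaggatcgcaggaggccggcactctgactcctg
Entpd2: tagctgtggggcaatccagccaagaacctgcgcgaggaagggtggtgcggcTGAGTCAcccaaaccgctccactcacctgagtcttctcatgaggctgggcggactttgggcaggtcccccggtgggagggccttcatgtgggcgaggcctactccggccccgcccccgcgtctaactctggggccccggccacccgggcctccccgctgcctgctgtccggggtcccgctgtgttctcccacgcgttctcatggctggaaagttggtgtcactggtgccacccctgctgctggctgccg
Cxcl14: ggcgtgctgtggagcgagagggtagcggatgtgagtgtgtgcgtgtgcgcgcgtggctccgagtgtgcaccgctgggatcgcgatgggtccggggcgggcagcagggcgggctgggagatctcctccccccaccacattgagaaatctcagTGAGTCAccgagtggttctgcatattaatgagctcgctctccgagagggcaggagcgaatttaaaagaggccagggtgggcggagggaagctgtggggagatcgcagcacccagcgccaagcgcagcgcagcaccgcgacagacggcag
Aspg: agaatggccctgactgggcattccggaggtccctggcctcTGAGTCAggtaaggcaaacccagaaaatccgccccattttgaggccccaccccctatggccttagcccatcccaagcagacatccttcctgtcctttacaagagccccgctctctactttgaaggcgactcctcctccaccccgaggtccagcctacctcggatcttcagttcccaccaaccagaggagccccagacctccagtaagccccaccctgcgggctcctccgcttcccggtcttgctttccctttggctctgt
Counted from the start, with the base before it as -1, the first base of the match lay at -167 in Ucn2, -87 in Gpnmb, -199 in Entpd2, -99 in Cxcl14 and -210 in Aspg. Cd68 had 2 matches, at -205 and -80. A match describes the letters of the window and is not evidence of binding.

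**Figure D1:**
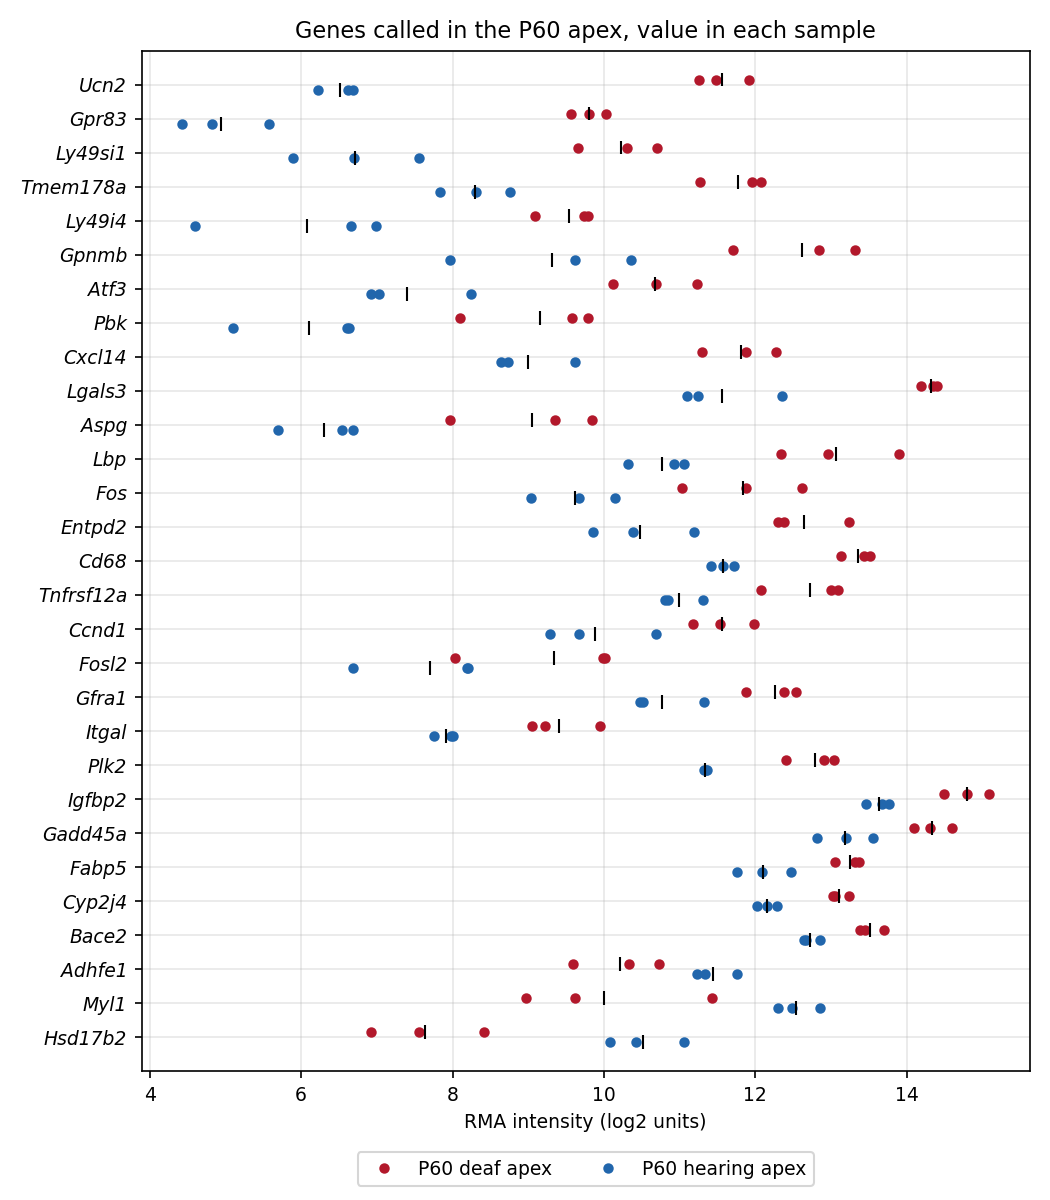
Log2 intensity (x axis) of the 29 called genes (y axis) in each P60 apical sample, with deaf samples in red above hearing samples in blue and the mean of 3 as a black bar. Red and blue points are apart for 28 of the 29 genes, against 12.2% of all genes. The 29 were called on the difference in these same samples, so their separation follows in part from that choice. For Fosl2 the lowest deaf sample (8.03) lies among the hearing samples (6.69 to 8.21).

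Among the called genes, the peptide gene Ucn2 and the receptor gene Gpr83 showed the largest differences. Ucn2, which encodes the peptide hormone urocortin 2, had 11.26, 11.48 and 11.92 log2 units in the deaf apex, against 6.22, 6.69 and 6.62 in the hearing apex. Gpr83, a G protein-coupled receptor, had 9.57, 10.02 and 9.80 in deaf samples and 4.43, 5.58 and 4.82 in hearing samples. Every deaf sample was more than 3 log2 units above every hearing sample for both genes. Ucn2 rose by 5.05 ± 0.79 (33.1-fold, adjusted p = 0.0119) and Gpr83 by 4.86 ± 0.60 (29.0-fold, adjusted p = 0.00148). The hearing values are dim and were not compared with the array's background, which leaves the fold of either gene uncertain. The same holds for other genes described below. Among all genes, the hearing mean lay at percentile 0.52 for Ucn2, 0.28 for Aspg, 0.35 for Bdnf and 1.8 for Atf3. The deaf mean lay at percentile 1.2 for Hsd17b2 and 0.12 for Chrna6. Gfra1, the receptor of glial cell line-derived neurotrophic factor, had 12.38, 12.54 and 11.87 in deaf and 11.32, 10.48 and 10.52 in hearing samples. It rose by 1.49 ± 0.25 (adjusted p = 0.0119). Of the 25 tested neuropeptides and peptide receptors, Ucn2 and Gpr83 were the 2 that passed. The median difference of these 25 was 0.11, against 0.03 over all genes, and it was -0.04 without deaf apex replicate 3 and 0.25 without hearing apex replicate 3.

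Transcription factors and early response genes formed the next group. Atf3, a factor that injured neurons induce, had 10.69, 11.24 and 10.12 log2 units in deaf samples and 7.02, 8.25 and 6.92 in hearing samples, a rise of 3.29 ± 0.70 (adjusted p = 0.0412). Fos, an AP-1 subunit and immediate early gene, had 11.03, 12.62 and 11.88 in deaf and 9.03, 10.15 and 9.67 in hearing samples, a rise of 2.22 ± 0.37 (adjusted p = 0.0119). Fosl2, another AP-1 subunit, had 8.03, 10.02 and 9.98 in deaf and 6.69, 8.21 and 8.20 in hearing samples. Replicate 1 was the lowest of its group for Fos and Fosl2 in both conditions, and it is the replicate on the smaller platform. Fosl2 passed (1.65 ± 0.32, adjusted p = 0.0315) although its groups overlapped, and it did not pass without the platform term in the model (adjusted p = 0.560). Gadd45a, a growth arrest and DNA damage gene that injured sensory neurons induce, had 14.60, 14.30 and 14.10 in deaf and 13.55, 12.81 and 13.20 in hearing samples (1.14 ± 0.25, adjusted p = 0.0412). Plk2, a stress- and activity-induced polo-like kinase, rose by 1.45 ± 0.31 (adjusted p = 0.0412), and its 3 hearing samples lay within 11.32 to 11.36.

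Of 24 tested nerve injury and regeneration genes, Atf3 and Gadd45a were called and the list median was 0.69. Deaf and hearing samples did not overlap, with deaf above, for 8 of the 24, against 7.76% of all genes. Gap43, a growth cone protein, had 11.83, 9.80 and 11.07 log2 units in deaf and 9.35, 9.46 and 8.66 in hearing samples and did not pass (1.74 ± 0.56, adjusted p = 0.232). Hspb1, a small heat shock protein of injured neurons, differed by 1.29 ± 0.41 (adjusted p = 0.223). Among 20 immediate early genes, Fos and Fosl2 were called and 18 differences were above 0 (90%), against 53.7% of all genes. The median of the 20 was 0.72, or 0.42 without deaf apex replicate 2. Junb, an AP-1 subunit, was higher by 2.02 ± 0.78 but failed the correction (adjusted p = 0.377).

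Genes of phagocytes made up the third group. Cd68, a lysosomal protein of macrophages, had 13.51, 13.44 and 13.13 log2 units in the deaf apex, against 11.57, 11.72 and 11.42 in the hearing apex. Lgals3, which encodes galectin 3, had 14.20, 14.40 and 14.35 in deaf samples and 11.24, 12.35 and 11.10 in hearing samples. Gpnmb, a glycoprotein of phagocytes that take up lipid and debris, had 13.31, 12.84 and 11.71 in deaf and 10.35, 7.96 and 9.62 in hearing samples. The groups were apart by more than 1 log2 unit for each of these genes. Cd68 rose by 1.79 ± 0.31 (adjusted p = 0.0130), Lgals3 by 2.76 ± 0.56 (adjusted p = 0.0334) and Gpnmb by 3.31 ± 0.59 (adjusted p = 0.0149). Itgal, a leukocyte integrin subunit, had 9.23, 9.94 and 9.05 in deaf samples and 7.98, 8.01 and 7.76 in hearing samples (1.49 ± 0.29, adjusted p = 0.0315).

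The macrophage and microglia list as a whole lay higher in the deaf apex. Of its 36 tested members 3 were called, Cd68, Gpnmb and Lgals3. Differences were above 0 for 34 of the 36 (94.4%), against 53.7% of all genes, with a median of 1.26. All deaf samples were above all hearing samples for 20 of the 36 (55.6%), against 7.76% of all genes. The summed intensity of the 36 ran from 179914 to 187077 units in deaf samples and from 86556 to 115256 in hearing samples. No member was listed at 0. Adgre1, an adhesion receptor that marks macrophages, had 12.89, 12.91 and 12.63 log2 units in deaf and 11.00, 11.75 and 11.51 in hearing samples, without passing (1.39 ± 0.35, adjusted p = 0.0952). Aif1, a calcium-binding protein of microglia and macrophages, was 1.83 ± 0.60 higher (adjusted p = 0.242), and Laptm5, a lysosomal protein of blood cells, 1.66 ± 0.43 (adjusted p = 0.0964). What part of the other differences comes with these markers was not tested.

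Complement genes had a median difference of 1.12 over 26 tested members, and 24 of the 26 were above 0 (92.3%), against 53.7% of all genes. None was called. All deaf samples were above all hearing samples for 16 of the 26 (61.5%), against 7.76% of all genes. C4a, a complement component, was the gene just outside the threshold: it had 13.29, 14.01 and 12.96 log2 units in deaf and 10.72, 11.02 and 11.11 in hearing samples (2.47 ± 0.55, adjusted p = 0.0501). C4b (2.48 ± 0.56, adjusted p = 0.0532) is a near-identical paralog that probes can hardly separate from C4a, so the pair may be 1 measurement. The gene just inside the threshold was Fabp5 (1.14 ± 0.25, adjusted p = 0.0458). C1qa, C1qb and C1qc, the chains of the recognition molecule of the classical pathway, differed by 1.55 ± 0.38, 1.72 ± 0.41 and 1.18 ± 0.28, with adjusted p of 0.0782, 0.0674 and 0.0646. C1qb had 12.86, 13.16 and 13.12 in deaf and 11.24, 11.49 and 11.24 in hearing samples, groups more than 1 log2 unit apart. C1s, a protease of that pathway, and its inhibitor Serping1 differed by 1.80 ± 0.41 (adjusted p = 0.0574) and 1.01 ± 0.23 (adjusted p = 0.0532), and C3, the central component, by 2.38 ± 0.71 (adjusted p = 0.185).

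**Figure D2:**
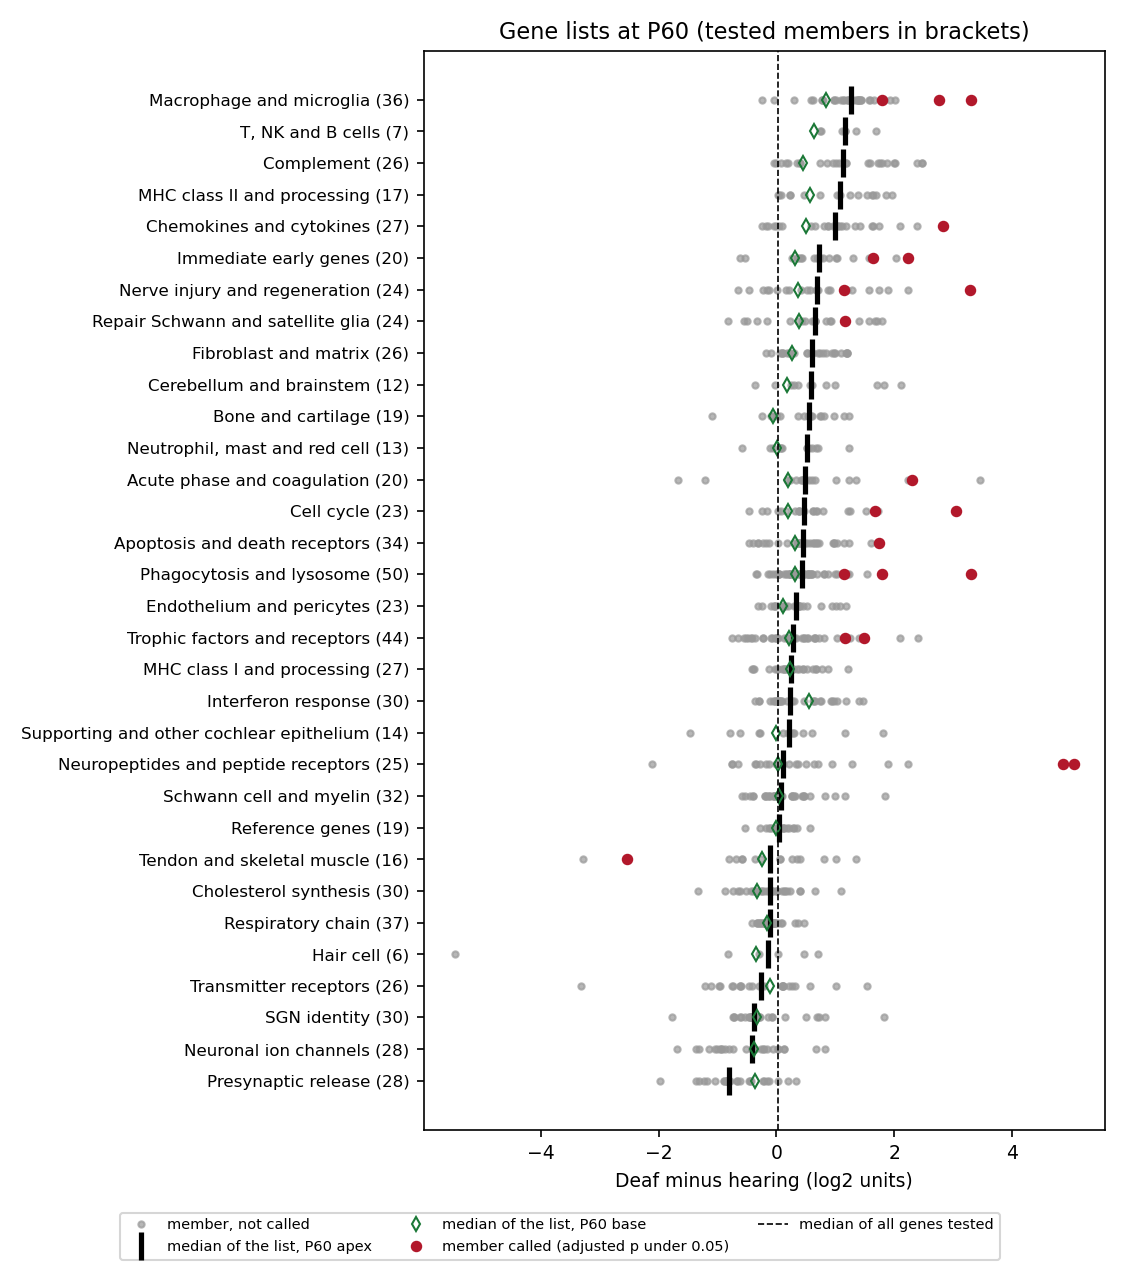
Log2 difference between deaf and hearing apex (x axis) of every tested member of 32 gene lists (y axis, number of tested members in brackets), with called members in red, the list median in the apex as a black bar and in the P60 base as a green diamond. Macrophage, lymphocyte, complement and MHC class II lists have apical medians between 1.08 and 1.26, and the presynaptic list has the lowest, at -0.80, while all genes together have 0.03 (dashed line).

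Antigen presentation, chemokine and lymphocyte genes were measured too. All 17 tested MHC class II genes had differences above 0, against 53.7% of all genes, with a median of 1.08. None of the 17 was called. Cd74, the invariant chain, had 13.58, 13.29 and 13.65 log2 units in deaf and 11.49, 12.88 and 11.27 in hearing samples (1.63 ± 0.47, adjusted p = 0.158). Hearing replicate 2 lay closest to the deaf samples for Cd74, and also in the mean of the list, which was 12.15, 12.04 and 12.28 in deaf and 10.86, 11.80 and 10.83 in hearing samples. Ctss, a cathepsin that trims the invariant chain, differed by 1.03 ± 0.23 (adjusted p = 0.0532). MHC class I genes had a median of 0.25 over 27 members, 0.47 within the smaller platform and 0.10 within the larger one. Their mean was 11.84, 12.39 and 12.19 in deaf and 11.35, 12.21 and 12.04 in hearing samples, with hearing replicate 1 the lowest. Cxcl14, a chemokine, had 11.88, 11.29 and 12.28 in deaf and 9.62, 8.63 and 8.74 in hearing samples and rose by 2.82 ± 0.58 (adjusted p = 0.0371). It was the 1 called gene of 27 chemokines and cytokines, whose median was 0.99. The monocyte attractants Ccl2 and Ccl7 were higher by 2.39 ± 0.67 (adjusted p = 0.142) and 2.10 ± 0.53 (adjusted p = 0.0924) and were not called.

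Ly49si1 and Ly49i4, killer cell lectin-like receptors of natural killer and myeloid cells, both rose. Ly49si1 had 10.31, 9.66 and 10.70 log2 units in deaf and 5.89, 6.69 and 7.56 in hearing samples (3.51 ± 0.61, adjusted p = 0.0130). Ly49i4 had 9.73, 9.10 and 9.79 in deaf and 4.59, 6.66 and 6.99 in hearing samples (3.46 ± 0.59, adjusted p = 0.0119). The Ly49 genes are a family of close relatives, so which member each probe set measures is uncertain, and the dim hearing values leave the size uncertain. Of 7 tested T, NK and B cell genes none was called. All 7 differences were above 0, against 53.7% of all genes, and the median was 1.16. Cd37, a tetraspanin of lymphocytes, differed by 1.69 ± 0.47 (adjusted p = 0.132). The summed intensity of the 7 ran from 7678 to 12033 units in deaf and from 3103 to 5272 in hearing samples, and the part of lymphocytes in the other differences was not tested.

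**Figure D3:**
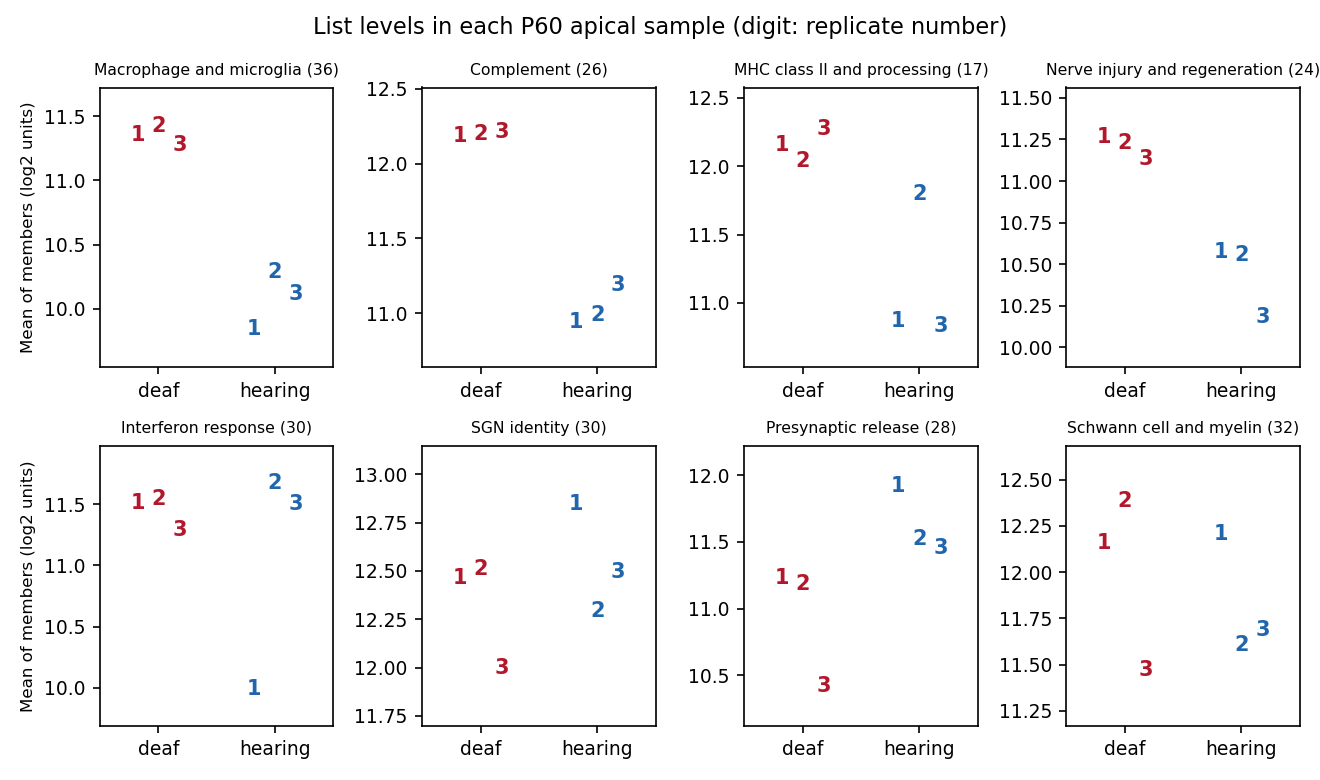
Mean log2 intensity of the members of 8 lists (y axes, each with its own range) in every P60 apical sample, with deaf in red left of hearing in blue and digits for the replicate number. Deaf and hearing samples are apart for the macrophage, complement, MHC class II, nerve injury and presynaptic lists and overlap for the SGN identity, Schwann cell and interferon lists, where hearing replicate 1 sits alone at 9.99 for interferon genes.

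The interferon response list was set by 1 library. Its mean was 11.51, 11.55 and 11.29 log2 units in deaf samples, against 9.99, 11.67 and 11.50 in hearing samples, so that hearing replicate 1 was low and the other hearing samples were level with the deaf ones. The median of its 30 members was 0.22, but -0.26 without hearing apex replicate 1. It was 1.37 within the smaller platform, which holds replicate 1, and -0.25 within the larger one. None of the 30 was called.

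Acute phase, cell cycle and glial genes were called in small numbers. Lbp, the lipopolysaccharide-binding protein, had 12.96, 13.89 and 12.34 log2 units in deaf and 11.05, 10.93 and 10.32 in hearing samples (2.30 ± 0.46, adjusted p = 0.0321). It was the 1 called gene of 20 in the acute phase and coagulation list, whose median was 0.48. Fgg, the fibrinogen gamma chain, had 8.26, 8.73 and 8.43 in deaf and 5.01, 4.23 and 5.81 in hearing samples and did not pass (adjusted p = 0.0532). Ccnd1, cyclin D1, rose by 1.68 ± 0.33 and Pbk, a mitotic kinase, by 3.05 ± 0.59, both with an adjusted p of 0.0315. Pbk had 9.80, 8.10 and 9.57 in deaf and 5.09, 6.63 and 6.61 in hearing samples, and its hearing values are dim. The other 21 of 23 tested cell cycle genes did not pass, and the list median was 0.46. Tnfrsf12a, the receptor of the cytokine TWEAK, had 12.07, 13.09 and 13.01 in deaf and 10.80, 10.84 and 11.32 in hearing samples (1.74 ± 0.37, adjusted p = 0.0399), the 1 called gene of 34 in the apoptosis and death receptor list.

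Igfbp2, an insulin-like growth factor binding protein, had 14.50, 15.09 and 14.80 log2 units in deaf and 13.67, 13.46 and 13.77 in hearing samples (1.16 ± 0.23, adjusted p = 0.0315). It was the 1 called gene of 24 in the repair Schwann and satellite glia list, which had a median of 0.65, or 0.43 without deaf apex replicate 2. Fabp7, a brain-type fatty acid-binding protein of immature and satellite glia, had 14.44, 13.46 and 13.39 in deaf and 13.34, 12.16 and 10.74 in hearing samples and was not called (1.68 ± 0.41, adjusted p = 0.0700). Gfap, an intermediate filament of reactive glia, differed by 1.71 ± 0.65 (adjusted p = 0.369). Of 32 Schwann cell and myelin genes none was called, and the median was 0.08, or -0.04 without deaf apex replicate 2 and 0.30 without deaf apex replicate 3. Mbp, myelin basic protein, differed by -0.20 ± 0.33. Fabp5, a fatty acid-binding protein, had 13.32, 13.05 and 13.38 in deaf and 12.48, 11.76 and 12.08 in hearing samples. With Cd68 and Gpnmb it made 3 called genes of 50 in the phagocytosis and lysosome list, whose median was 0.43.

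The remaining genes that rose belong to varied classes. Tmem178a, a transmembrane protein, had 11.27, 11.95 and 12.08 log2 units in deaf and 7.84, 8.75 and 8.31 in hearing samples (3.47 ± 0.69, adjusted p = 0.0315). Aspg, an asparaginase, had 7.97, 9.84 and 9.36 in deaf and 6.55, 5.69 and 6.68 in hearing samples (2.75 ± 0.59, adjusted p = 0.0412). Entpd2, an ectonucleotidase that hydrolyses extracellular ATP, had 12.30, 13.24 and 12.38 in deaf and 11.19, 9.86 and 10.39 in hearing samples (2.16 ± 0.43, adjusted p = 0.0321). None of these groups overlapped. Cyp2j4, a cytochrome P450 of fatty acid oxidation, rose by 0.95 ± 0.20 (adjusted p = 0.0394). Bace2, an aspartyl protease, rose by 0.79 ± 0.16 (adjusted p = 0.0334), the smallest rise among the 26.

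Of the genes that fell, Hsd17b2, which oxidizes sex steroids, had 7.55, 6.93 and 8.42 log2 units in deaf samples, against 10.09, 11.06 and 10.42 in hearing samples, a difference of -2.89 ± 0.47 (adjusted p = 0.0119). Adhfe1, a mitochondrial enzyme of hydroxybutyrate metabolism, had 10.73, 9.59 and 10.33 in deaf and 11.76, 11.34 and 11.23 in hearing samples (-1.23 ± 0.21, adjusted p = 0.0119). Myl1, a myosin light chain of skeletal muscle, had 9.61, 8.97 and 11.43 in deaf and 12.49, 12.29 and 12.85 in hearing samples (-2.54 ± 0.52, adjusted p = 0.0340). Deaf replicate 3 was the highest deaf sample for Hsd17b2 and Myl1 without reaching the hearing samples. Myl1 was the 1 called gene of 16 in the tendon and skeletal muscle list. The list median was -0.10, and 8 of the 16 differences were above 0 (50%), against 53.7% of all genes. Des, another member, was higher by 1.01 ± 0.43 (adjusted p = 0.459). The summed intensity of the 16 was 46058 to 60317 units in deaf and 58892 to 66563 in hearing samples. That sum includes the bright gene Pvalb, which is also in the list of spiral ganglion neuron genes, so it does not describe muscle alone. Tnmd, a tendon gene, had 7.43, 5.67 and 9.45 in deaf and 9.91, 11.26 and 11.22 in hearing samples and did not pass (-3.28 ± 0.74, adjusted p = 0.0532). The part of muscle or tendon tissue in these values was not tested.

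The labelled tissue was checked against its markers. Neuronal, myelin and Schwann cell genes were measured in all 6 samples, with Snap25, a synaptic vesicle fusion protein, at 14.61 to 14.94 log2 units in deaf and 15.16 to 15.37 in hearing samples. Of 6 tested hair cell genes, Ocm, oncomodulin, a calcium-binding protein of outer hair cells, had 4.51, 4.37 and 5.57 in deaf and 11.62, 6.47 and 12.73 in hearing samples. Hearing replicate 2 was close to the deaf samples, and the difference of -5.46 ± 1.42 did not pass (adjusted p = 0.103). Myo7a, Espn and Cib2, genes of the hair bundle, differed by 0.70 ± 0.58, 0.46 ± 0.48 and -0.82 ± 0.51. The part of residual hair cells in the other differences was not tested. The 12 cerebellum and brainstem genes had a median of 0.59, or 0.35 without deaf apex replicate 1. Differences were above 0 for 10 of the 12 (83.3%), against 53.7% of all genes. Their mean was 11.22, 10.18 and 9.66 in deaf and 10.16, 9.49 and 9.13 in hearing samples. Among them, Car8 had 12.67, 6.77 and 8.18 in deaf samples and 6.96, 7.51 and 6.81 in hearing samples. Calb1 had 12.08, 9.18 and 8.67 in deaf and 8.99, 7.05 and 8.41 in hearing samples. Deaf replicate 1 stood above all others for both genes and in the mean of the list, and neither gene passed. The part of such tissue in the other differences was not tested.

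No neuronal gene of the lists was called lower in the deaf apex. The 28 presynaptic release genes had the lowest median of the lists, -0.80. Differences were above 0 for 3 of the 28 (10.7%), against 53.7% of all genes. All deaf samples were below all hearing samples for 6 of the 28 (21.4%), against 4.43% of all genes. Deaf apex replicate 3 was the lowest sample for this list, with a mean of 10.42 log2 units, against 11.23 and 11.19 in the other deaf samples and 11.92, 11.52 and 11.46 in the hearing samples. Without it the list median was -0.39. Slc17a6, a vesicular glutamate transporter, had 9.33, 8.95 and 6.69 in deaf and 10.27, 9.56 and 10.45 in hearing samples (-1.77 ± 0.73, adjusted p = 0.437). Pclo, the active zone scaffold piccolo, had 9.15, 7.61 and 7.39 in deaf and 9.86, 8.79 and 9.60 in hearing samples (-1.37 ± 0.46, adjusted p = 0.245), and its groups overlapped. Syn2, synapsin 2, had 9.81, 10.25 and 9.58 in deaf and 10.81, 10.87 and 10.33 in hearing samples (-0.79 ± 0.33, adjusted p = 0.442), without overlap. Snap25 differed by -0.47 ± 0.27 (adjusted p = 0.655).

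Genes that define spiral ganglion neurons had a median of -0.38 over 30 members, ion channels -0.42 over 28 and transmitter receptors -0.27 over 26. Differences were above 0 for 6 of the 30 (20%), 6 of the 28 (21.4%) and 11 of the 26 (42.3%), against 53.7% of all genes. Without deaf apex replicate 2 the ion channel median was -0.64 and the transmitter receptor median -0.40, and without deaf apex replicate 3 the transmitter receptor median was -0.14. Deaf samples were all below hearing samples for 7 of the 30 (23.3%), 4 of the 28 (14.3%) and 4 of the 26 (15.4%), against 4.43% of all genes. Thy1, a neuronal surface glycoprotein, had 12.04, 12.73 and 12.33 log2 units in deaf and 13.14, 12.98 and 13.13 in hearing samples (-0.72 ± 0.32, adjusted p = 0.506). Pvalb, the calcium buffer parvalbumin, had 14.94, 14.64 and 14.76 in deaf and 15.30, 15.18 and 14.95 in hearing samples (-0.36 ± 0.18, adjusted p = 0.530). The neurofilament genes Nefl and Nefh differed by -0.53 ± 0.25 and -0.34 ± 0.85, and their groups overlapped. Scn8a, a sodium channel of nodes of Ranvier, had 7.52, 7.33 and 5.82 in deaf and 8.93, 9.05 and 7.73 in hearing samples (-1.68 ± 0.81, adjusted p = 0.527). Chrna6, a nicotinic acetylcholine receptor subunit, had 7.23, 6.10 and 6.48 in deaf and 9.78, 9.45 and 10.55 in hearing samples, more than 2 log2 units apart, but did not pass (-3.32 ± 0.94, adjusted p = 0.146). Other channel and receptor genes were higher in deaf samples without passing. Gria1 differed by 1.53 ± 0.58 (adjusted p = 0.369), Cacna2d1 by 0.68 ± 0.31 (adjusted p = 0.502) and P2rx4 by 0.58 ± 0.26 (adjusted p = 0.494). Th and Prph, which mark type II neurons and, for Th, sympathetic axons, differed by -0.42 ± 0.52 and 0.15 ± 0.37. A difference that failed the test is not shown to be absent, since 3 samples a group leave SEs of up to 0.94 log2 units for these genes.

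**Figure D4:**
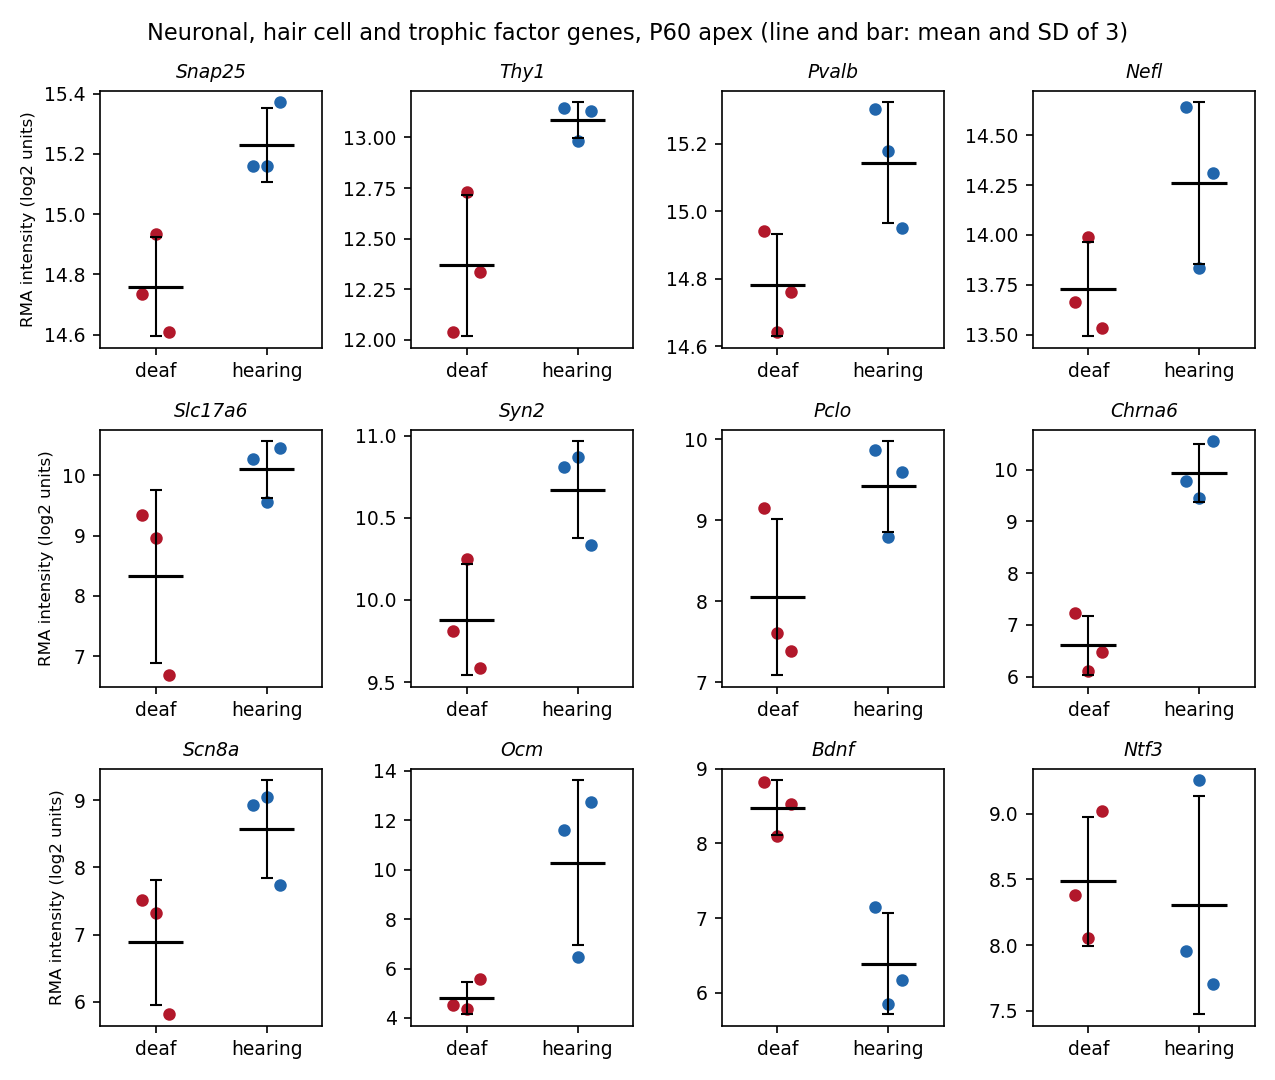
Log2 intensity (y axes, each with its own range) of 12 neuronal, hair cell and trophic factor genes in the P60 apex, with deaf left of hearing, points for samples and line and bar for mean and SD of 3. Deaf samples are all below hearing samples for 8 of the 12 genes, against 4.43% of all genes, and all above for Bdnf, against 7.76%. They overlap for Nefl, Pclo and Ntf3, and none of the 12 was called. Several of the 12 were named for having the smallest p of their lists, so the count does not describe neuronal genes as a whole.

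Trophic factors and their receptors were measured as a list of 44, of which Gfra1 and Igfbp2 were called. The median was 0.28, or 0.12 after quantile normalization. Bdnf, brain-derived neurotrophic factor, a survival factor of these neurons, had 8.83, 8.10 and 8.53 log2 units in deaf and 7.15, 5.85 and 6.17 in hearing samples, without overlap and without passing (2.09 ± 0.69, adjusted p = 0.243). Ntf3, neurotrophin 3, the other survival factor of the cochlea, had 8.38, 8.06 and 9.02 in deaf and 7.96, 9.26 and 7.71 in hearing samples (0.18 ± 0.54, adjusted p = 0.975). Osmr, the oncostatin M receptor, was higher in every deaf than in any hearing sample but was not called (2.41 ± 0.66, adjusted p = 0.123).

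The P60 apex was then set beside the P60 base, fitted in the same model from its own samples. In the base 4 genes were called (0.0696%), and all 4, Ucn2, Gpr83, Gfra1 and Hsd17b2, were also called in the apex. Ucn2 had 11.09, 12.63 and 11.23 log2 units in the deaf base and 5.56, 7.17 and 6.71 in the hearing base, a rise of 5.17 ± 0.79. Gfra1 rose by 1.97 ± 0.25 in the base, and its difference between portions, -0.47 ± 0.35 for apex minus base, did not pass. The 29 apical genes had the same sign in the base in all cases, against 71.4% of all genes. Their median in the direction of the apical change was 2.22 in the apex and 1.25 in the base, and 25 of the 29 were smaller in the base. The genes were chosen for their apical value, so a smaller value elsewhere and a higher share of equal signs follow in part from that choice. Apex and base of the same number were also correlated, as given below, so the portions are not independent. No gene passed the test of the difference between portions with limma, and 25 had an unadjusted p under 0.05 (0.435%), against 169 for the basal difference itself (2.94%). The smallest p belonged to Igsf1, an immunoglobulin superfamily gene, at -1.38 in the apex and 0.15 in the base (difference -1.53 ± 0.51, unadjusted p = 0.00748). Of the 29 called genes 6 were among these 25: Ly49i4, Ly49si1, Bace2, Igfbp2, Pbk and Cyp2j4. Ly49i4 had the smallest p of the 6 (difference 1.86 ± 0.83, unadjusted p = 0.0374). Igfbp2 differed by 1.16 in the apex and 0.46 in the base (difference 0.70 ± 0.32, unadjusted p = 0.0435), and Fabp7, which was not called, by 1.68 and 0.31 (difference 1.37 ± 0.58, unadjusted p = 0.0292). The fit treated apex and base of the same number as independent, although their consensus correlation was 0.629. Leaving out such a correlation can make the SE of a difference between portions too wide. For the apical difference itself, it can count the samples as more independent than they are and make p too small. With apex and base of the same number as a random block, 6 of the 29 genes were still called in the apex. With that block, 267 genes had an unadjusted p under 0.05 for the difference between portions, and again none passed. A larger number of calls in the apex is thus not a shown difference between portions, and such a difference is not shown to be absent.

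**Figure D5:**
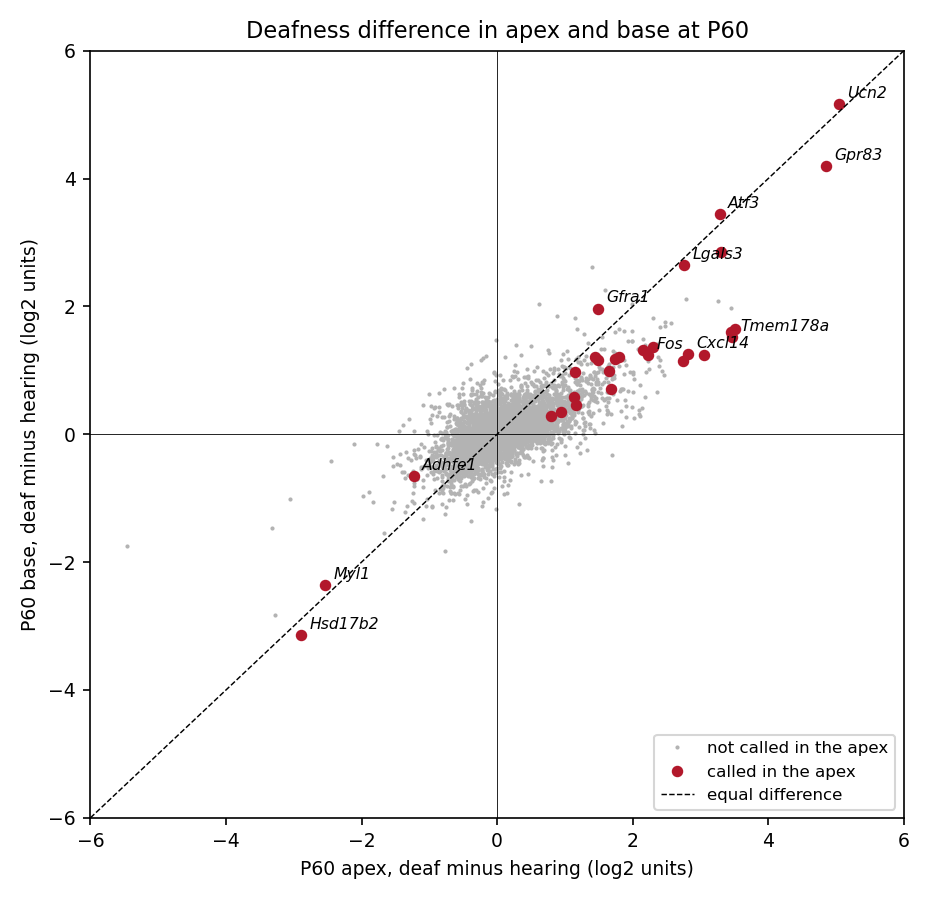
Log2 difference between deaf and hearing rats in the P60 apex (x axis) and the P60 base (y axis) for each of 5750 genes, with the 29 genes called in the apex in red and equal differences on the dashed line. All 29 lie on the same side of 0 on both axes, Ucn2, Gpr83, Atf3, Lgals3 and Hsd17b2 lie near the line, and 25 of the 29 are smaller in the base.

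At P32, the earlier age, no apical gene was called with limma, and 149 had an unadjusted p under 0.05 (2.59%). All 29 genes had the same sign at P32, against 62.9% of all genes, with a median of 0.95 in the direction of the P60 change. The 29 were chosen for large P60 differences, with a median of 2.22, against 0.28 over all genes in their own direction. The higher share of equal signs and the smaller values at P32 follow in part from that choice. These P32 values depend on P32 hearing apex replicate 1. Without it 11 genes were called at P32, 8 of them among the 29, the median of the 29 was 1.47 and 27 of the 29 were smaller at P32 than at P60, against all 29 with it. Gpr83 had 7.32, 8.31 and 8.49 log2 units in the P32 deaf apex and 8.02, 5.18 and 4.47 in the P32 hearing apex, where replicate 1 is the high value. Its difference was 2.15 ± 0.60, or 3.37 ± 0.31 without that sample. Ucn2 likewise differed by 2.92 ± 0.79 at P32, or 4.44 ± 0.49 without it, and the macrophage list had a P32 median of 0.46, or 1.16 without it. Hsd17b2 was steadier, at -2.54 ± 0.47 with it and -2.90 ± 0.52 without it.

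No gene passed the test of the difference between P60 and P32 in the apex with limma. An unadjusted p under 0.05 was found for 101 genes (1.76%), and for 36 without P32 hearing apex replicate 1, again with none called. Slc22a8, an organic anion transporter, had the smallest p, at 1.06 at P60 and -0.77 at P32 (difference 1.83 ± 0.44, unadjusted p = 0.000672). Gadd45a differed by 1.14 at P60 and 0.02 at P32 (difference 1.12 ± 0.35, unadjusted p = 0.00468), and by 0.24 at P32 without that sample. Cxcl14 differed by 2.82 at P60 and 0.20 at P32 (difference 2.62 ± 0.83, unadjusted p = 0.00540), and by 1.17 at P32 without it. Fabp7 differed by 1.68 at P60 and -0.21 at P32 (unadjusted p = 0.00419).

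The number of genes called varied with the samples and the model. With the 6 apical samples alone, which leave 3 residual degrees of freedom, 3 genes were called, and with the 12 P60 samples, an alternative chosen after seeing the data, 139. Leaving out 1 of the 6 samples at a time gave 2 to 13 genes, with the fewest without hearing replicate 1. Gpr83 was called under all 21 alternatives in which it was tested, and Ucn2 under 19, with an adjusted p of 0.0620 without hearing replicate 1 and 0.0816 with apex and base of the same number as a random block. That block left 6 genes called, all higher in deaf rats, so Hsd17b2, Adhfe1 and Myl1 lost their calls under it. Within each platform all 29 genes kept the direction of the pooled difference, with 1 deaf against 1 hearing sample on the smaller and 2 against 2 on the larger, from the same samples that chose the genes. Atf3 was not called without any 1 of the 6 samples, with adjusted p up to 0.233, and its difference stayed between 2.98 and 3.75.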

How the data were processed

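Spiral ganglion RNA was measured on 1-colour arrays in 24 samples, 3 in each of 8 groups taken from the labels. The authors deposited intensity values normalized with RMA, per the submitters' processing notes, which give no version, and averaged technical replicates, per the labels. The sources used here do not say whether both platforms were normalized together. The deposited intensity values are linear, and log2 was taken with no pseudocount. Of 14138 transcripts, 5828 were named from RefSeq accessions (assembly GRCr8) and 8310 had no gene name there. This left 5750 genes. For the 61 with several transcripts, the one with the highest mean was used.

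Tests, all two-sided, came from limma 3.58.1 (R 4.3.3), with lmFit, contrasts.fit and eBayes run on all 24 samples with 8 group means and platform as a term, leaving 15 residual degrees of freedom. The p-values were adjusted across all 5750 genes (Benjamini-Hochberg, threshold 0.05), and the script was tested on simulated data. An exact test of 3 against 3 cannot go below p = 0.1, so none was used. Alternatives varied the samples, platform term, normalization, pseudocount, dim-gene filter, transcripts, spread, blocks and replicates. The 32 gene lists hold 1342 symbols, of which 1333 are in the RefSeq table and 724 were tested. Both the lists and the 26 fixed names used below were chosen with earlier results of these data known. Lists are described by counts and medians only. Genes were named by rule: those called, up to 30 of largest difference in each direction, filled to 10 by smallest p where fewer were called, up to 4 of smallest p per list, 6 of smallest p per difference of effects and 26 fixed names, 1 of which is not reported here. C1qb, C1qc and Laptm5 fall outside it and were chosen after their values were seen.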

Additional observations from a re-analysis of the deposited data

Results flagged for a closer look

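The platform tables hold 3877 named genes that the table of the whole series leaves out. When the 9627 genes of the platform tables were tested with limma, 33 were called, and 9 of the 33 were among these 3877. Deaf and hearing apical samples did not overlap for any of the 9, against 12.2% of the 5750 genes of the series table. That separation follows in part from calling the 9 on these same samples. Fgf5, a fibroblast growth factor, had 8.37, 8.40 and 7.35 log2 units in the deaf apex, against 4.32, 4.44 and 3.86 in the hearing apex, a difference of 3.83 ± 0.45 (adjusted p = 0.00112). Mmp7, a matrix metalloproteinase, was 3.10 higher, Rgs9, a regulator of G protein signalling, 2.53, and F7, coagulation factor VII, 2.31. Necab2 was 2.04 higher, Hk3, a hexokinase of leukocytes, 1.91, Scn10a, a sodium channel of sensory neurons, 1.39, and Cdhr5 1.21. Acot5, an acyl-CoA thioesterase, was lower, at -1.23. Most of these values are dim, and whether they stand above background was not tested. The sources used here do not say why the series table leaves these genes out.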

How the results depend on the processing

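The count of 29 genes called in the P60 apex moved most where the samples or the model changed. It was 3 with the 6 apical samples alone, 14 without the platform term, 3 on the 16-sample platform alone, 6 with apex and base of the same number as a random block, 47 with an intensity trend and robust estimation, 117 without P32 hearing apex replicate 1 and 139 with the 12 P60 samples only, which was chosen after seeing the data. The 117 genes held all 29 and the 139 held 28. Leaving out 1 of the 6 samples in turn gave 2 to 13 genes. With replicate number as a block the count was 83, and 124 with number within age, both holding all 29. The deviations of same-numbered deaf and hearing samples correlated at 0.479, -0.0863 and 0.182, so the numbers were not taken to pair the samples. Under 7 scalings, filters and choices of transcripts the count stayed between 23 and 38. The cause of these moves was not tested. No named gene changed direction while called under any alternative, and the differences between portions and between ages gave 0 called genes under each one run, with 11 to 267 and 36 to 252 genes at an unadjusted p under 0.05.

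The number of arrays, the unknown background of dim probes, and pools whose shared animals are not stated limit these values. Quantile normalization moved the median of all genes to -0.04 and median centring to -0.06, from 0.03. Apex and base of the same number had a consensus correlation of 0.629. Transcripts without a name were tested only as an alternative, in which 35 were called.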

Other observations

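Several lists of neighbouring tissue and metabolism held no called gene. Fibroblast and matrix genes had a median difference of 0.60 over 26 members, with 24 above 0 (92.3%), against 53.7% of all genes. Bone and cartilage genes had a median of 0.55 over 19. These medians were 0.25 without deaf apex replicate 2 and 0.36 without deaf apex replicate 3. Col3a1, a fibrillar collagen, differed by 0.84 ± 0.24 (adjusted p = 0.158) and Mmp11, a matrix metalloproteinase, by 1.21 ± 0.29 (adjusted p = 0.0713). Endothelium and pericyte genes had a median of 0.34 over 23, or 0.18 without deaf apex replicate 2, with Icam1, a leukocyte adhesion receptor of activated endothelium, at 1.18 ± 0.33 (adjusted p = 0.136).

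Respiratory chain genes had a median of -0.12 over 37 members, with 6 of the 37 above 0 (16.2%), against 53.7% of all genes. Cholesterol synthesis genes had a median of -0.11 over 30. Across the alternatives these ran from -0.24 to -0.05 and from -0.25 to -0.05. The 19 reference genes had a median of 0.04. Neutrophil, mast and red cell genes had a median of 0.52 over 13, which was 0.03 without hearing apex replicate 3.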
